A study of Homo sapiens with 12 samples.

Results

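The Fanconi anaemia and homologous recombination genes are 33 named genes whose RNA levels were followed in C4-2, a prostate cancer cell line derived from LNCaP that grows without androgen, with or without added ALKBH5. They were found by symbol among 20308 genes of the expression table, and all 33 were present. Cells carrying an ALKBH5 overexpression construct (oeALKBH5, 3 input libraries) were set against cells carrying an empty vector (NC, 3 input libraries). ALKBH5 is an enzyme that removes the methyl mark m6A from RNA. The input libraries hold ribosome-depleted total RNA taken before the m6A pull-down. The construct's promoter and the culture conditions are not given in the sources used here. Nor do the labels say that replicates are separate cultures: the p-values therefore rest on a spread between libraries that may be technical. The labels give no treatment beside the construct, and nothing says whether the cells are 1 clone or a pool.

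The Fanconi anaemia pathway repairs crosslinks between the DNA strands. A core complex of FANC proteins, working with the ubiquitin-conjugating enzyme UBE2T, adds ubiquitin to the FANCD2 and FANCI pair, which then recruits nucleases to the lesion. The break that results is mended by homologous recombination: the MRE11, RAD50 and NBN complex and its partners trim the DNA ends, and BRCA1, PALB2 and BRCA2 load the recombinase that copies the sister chromatid. Many of these genes are transcribed mainly in S phase, when a sister chromatid is being made, and inherited defects in several of them predispose to prostate, breast or ovarian cancer.

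All values are deposited FPKM (fragments relative to the length of the transcript and to all those mapped), a scale per length on which genes can be compared. Library sums ran from 511333 to 512996 FPKM in oeALKBH5 libraries and from 514140 to 524905 FPKM in NC libraries, and the absolute depth is unknown. ALKBH5 itself was at 80.3, 74.3 and 72.5 FPKM in oeALKBH5 libraries, against 65.0, 61.1 and 58.2 FPKM in NC libraries. The oeALKBH5 libraries all lay above the NC libraries, but the log2 difference of 0.30 (SE 0.10) was not called (limma adjusted p = 0.115), and the sources do not say whether the construct's own transcripts are part of this value. Of 9 luminal prostate markers 1 was called, the keratin KRT8, which rose to 224 ± 13.2 FPKM in oeALKBH5 cells, against 137 ± 8.44 FPKM in NC cells (SD, n = 3 each; limma adjusted p = 0.00242). Of the 9, 6 had a log2 difference above 0 and 3 below, and they summed to between 2244 and 2478 FPKM in oeALKBH5 libraries, against between 2234 and 2267 FPKM in NC libraries. KLK3, which encodes PSA, was between 893.4 and 998.4 FPKM in oeALKBH5 libraries and between 990.3 and 1020 FPKM in NC libraries. Of 8 immune markers, MS4A1 and NKG7 were among those listed at 0 in all libraries, and the 8 summed to between 3.49 and 7.86 FPKM in oeALKBH5 libraries and between 0.521 and 2.80 FPKM in NC libraries. CD3D was at 1.27, 1.70 and 2.53 FPKM in oeALKBH5 libraries, against 0.524, 0 and 0.527 FPKM in NC libraries. It was not called (limma adjusted p = 0.111). PTPRC, too low to be tested, also lay higher in all oeALKBH5 libraries. The remaining immune markers overlapped or were at 0 throughout. Of 6 fibroblast markers, DCN and LUM were listed at 0 in all libraries; the 6 summed to between 4.08 and 28.1 FPKM in oeALKBH5 libraries and between 4.05 and 13.1 FPKM in NC libraries, most of it COL1A1 in every library. The part of these markers in the members' values was not tested.

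Lower RNA in oeALKBH5 cells was called for the ubiquitin-conjugating enzyme, FANCD2, BRCA1, a recombinase paralog and NBN. Of the 33 members, 5 fell, 0 rose and 28 were not called (limma on log2(FPKM + 1), Benjamini-Hochberg adjusted p under 0.05 over 12757 genes). Those that fell were UBE2T, FANCD2, BRCA1, XRCC2 and NBN. That is 15.2% of the members, beside 2.43% of all tested genes called lower and 3.02% called higher. The members were chosen with earlier results of these data known, so this contrast is a description and no test. At an unadjusted limma p under 0.05, 15 members were lower and 2 higher, where 10.3% of all tested genes were lower and 11.6% higher. All 33 passed the filter on low values, a mean of at least 0.5 FPKM, so none was lost to it. The count of members called lower was 0 without NC replicate 3 and 0 without the limma trend, and 1 with a replicate block (UBE2T) and 1 without the filter (FANCD2). A member that was not called is not thereby shown to be the same in both groups. The median log2 fold change of the members was -0.38, beside 0.02 over all tested genes, and 25 of the 33 were below 0, as were 47.7% of all tested genes. In 15 members every oeALKBH5 library lay below every NC library, and in 2 every one lay above; these patterns held for 13.0% and 15.1% of all tested genes. Fewer cells in S phase and less RNA per cell cannot be told apart in bulk RNA.

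**Figure D1:**
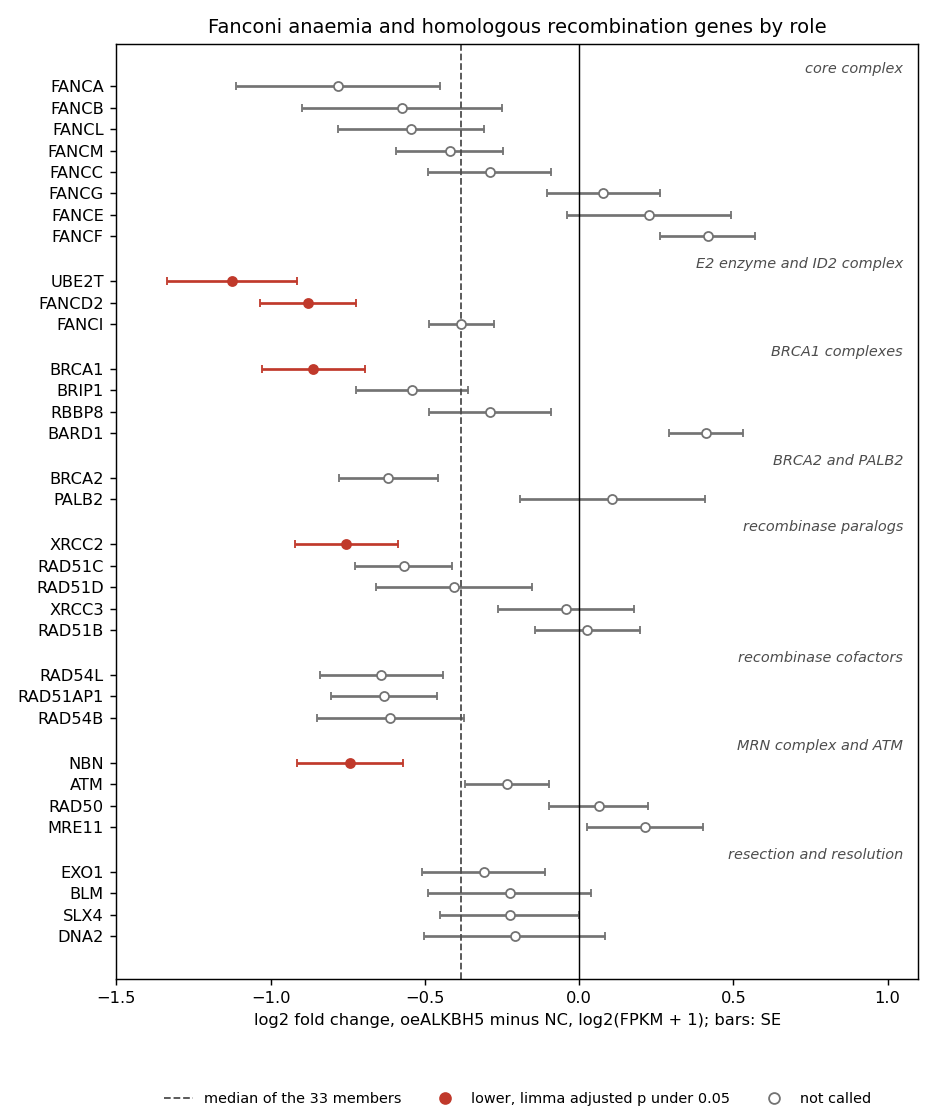
Log2 fold change of each of the 33 members, oeALKBH5 minus NC on the log2(FPKM + 1) scale, grouped by role, with bars of 1 SE from limma. The 5 filled points, UBE2T, FANCD2, BRCA1, XRCC2 and NBN, are the members called lower; BARD1 and FANCF stand at the right, at 0.41 and 0.42, and are not called.

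The members differed widely in level. FANCI was the most abundant, with a mean of 83.9 FPKM over the 6 libraries, followed by BARD1 at 61.0, RAD51C and ATM at 45.5 each, and RAD50 at 43.3 FPKM. SLX4 at 3.96, FANCE at 4.02 and BRIP1 at 8.62 FPKM were the least abundant. The members that fell stood in the middle of this order, from 14.5 FPKM for XRCC2 to 29.9 FPKM for UBE2T. All 33 together summed to 754, 654 and 713 FPKM in oeALKBH5 libraries, against 848, 916 and 910 FPKM in NC libraries, without overlap.

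UBE2T, the E2 enzyme that delivers ubiquitin to FANCD2, had the largest fall. It was at 22.4, 12.9 and 20.8 FPKM in oeALKBH5 libraries, against 35.4, 41.5 and 46.4 FPKM in NC libraries. Every oeALKBH5 library was well below the lowest NC library, and oeALKBH5 replicate 2 was the lowest of all. The mean in oeALKBH5 cells was 45.4% of that in NC cells, and the log2 fold change was -1.13 with an SE of 0.21 (limma adjusted p = 0.0202).

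FANCD2, the substrate that UBE2T and the core complex modify, was at 17.4, 20.9 and 18.2 FPKM in oeALKBH5 libraries, against 36.0, 29.9 and 41.0 FPKM in NC libraries. The oeALKBH5 libraries lay close together and did not reach the NC range. The log2 fold change was -0.88 (SE 0.16, limma adjusted p = 0.0156), the smallest p of the 33 members. Its partner FANCI was at 76.7, 69.8 and 71.1 FPKM in oeALKBH5 libraries, against 84.2, 95.8 and 105 FPKM in NC libraries. The groups did not overlap for FANCI either, but its log2 difference of -0.38 (SE 0.11) was not called (limma adjusted p = 0.0764).

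The core complex, the E3 ligase of the pathway, had no called member among 8. FANCL, its catalytic RING subunit, was at 6.93, 5.26 and 9.43 FPKM in oeALKBH5 libraries, against 12.2, 9.17 and 11.0 FPKM in NC libraries, and the groups overlapped. FANCM, the DNA translocase that anchors the complex, was at 13.0, 11.7 and 13.5 FPKM in oeALKBH5 libraries, against 14.3, 19.7 and 18.4 FPKM in NC libraries, without overlap (log2 difference -0.42, SE 0.17, limma adjusted p = 0.201). FANCF, an adaptor of the complex encoded by a single exon, lay the other way: 21.2, 18.5 and 17.3 FPKM in oeALKBH5 libraries, against 13.1, 14.8 and 14.0 FPKM in NC libraries. It did not overlap, with a log2 difference of 0.42 (SE 0.15), and was not called (limma adjusted p = 0.155).

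The scaffold subunit FANCA was the most variable of all members, with a spread within groups of 0.55 on the log2 scale, beside a median of 0.24 over the members and 0.23 over tested genes in the same range of levels. It was at 22.5, 7.69 and 17.9 FPKM in oeALKBH5 libraries, against 23.4, 30.8 and 24.3 FPKM in NC libraries. The groups did not overlap, but oeALKBH5 replicate 1 came close to the lowest NC library. Its log2 difference of -0.78 (SE 0.33, limma adjusted p = 0.21) was -0.36 without oeALKBH5 replicate 2. ZNF276, which overlaps FANCA in the GRCh38 annotation, was at 9.98, 7.65 and 16.2 FPKM in oeALKBH5 libraries and at 11.2, 16.1 and 8.12 FPKM in NC libraries. The part of this overlap in the FANCA values was not tested.

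FANCB rested on 1 library: NC replicate 1 was at 26.0 FPKM, while the other NC libraries, at 12.6 and 10.9 FPKM, lay within the range of the oeALKBH5 values, 10.5, 12.7 and 7.37 FPKM. FANCC, another subunit, was at 9.45, 10.4 and 6.84 FPKM in oeALKBH5 libraries, against 10.8, 10.9 and 11.2 FPKM in NC libraries, a narrow separation (log2 difference -0.29, limma adjusted p = 0.435). FANCE, which bridges the complex to FANCD2, was at 4.96, 2.93 and 5.52 FPKM in oeALKBH5 libraries and between 3.54 and 3.58 FPKM in NC libraries. Its groups overlapped through oeALKBH5 replicate 2. FANCG averaged 29.0 ± 6.52 FPKM in oeALKBH5 cells and 27.0 ± 2.56 FPKM in NC cells (SD, n = 3 each), and these groups overlapped too.

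**Figure D2:**
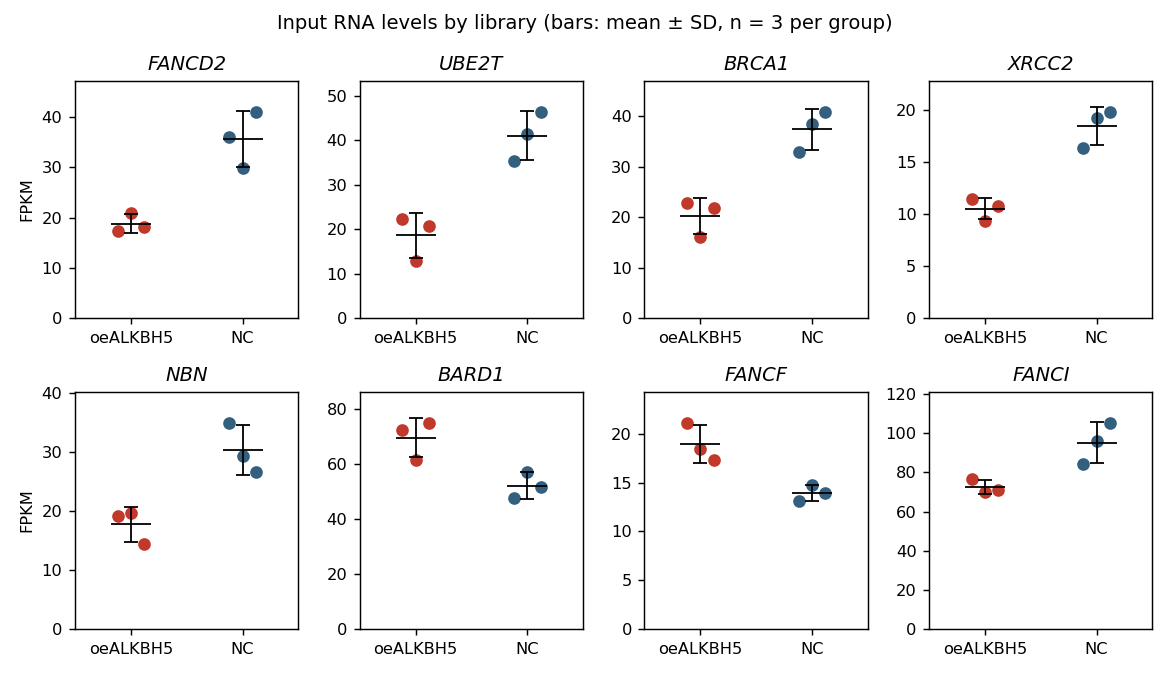
FPKM of 8 members in each input library, oeALKBH5 left and NC right, with the mean and SD of 3 libraries. UBE2T, FANCD2, BRCA1, XRCC2, NBN and FANCI lie lower in all oeALKBH5 libraries; BARD1 and FANCF lie higher in all of them.

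BRCA1 and BARD1, which form an obligate ubiquitin ligase pair, lay in opposite directions. BRCA1 was at 22.8, 16.1 and 21.8 FPKM in oeALKBH5 libraries, against 32.8, 38.5 and 40.8 FPKM in NC libraries. It fell to 54.2% of its mean in NC cells, with no overlap and a log2 fold change of -0.86 whose SE was 0.17 (limma adjusted p = 0.0231). BARD1 was at 72.4, 61.7 and 75.2 FPKM in oeALKBH5 libraries, against 47.6, 57.4 and 51.5 FPKM in NC libraries. All oeALKBH5 libraries were above all NC libraries, but the log2 difference of 0.41 (SE 0.12) was not called (limma adjusted p = 0.0858).

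The helicase BRIP1, which binds BRCA1, was tight in both groups: 7.28, 6.45 and 6.76 FPKM in oeALKBH5 libraries, against 10.4, 11.1 and 9.71 FPKM in NC libraries. The groups did not overlap, and the log2 difference of -0.54 (SE 0.18) was not called (limma adjusted p = 0.124). Its own spread, 0.0831 on the log2 scale, was the smallest of the members, and limma draws each gene's variance toward that of genes of like level. RBBP8, which encodes the end-resection factor CtIP, overlapped, with 31.7, 18.7 and 20.1 FPKM in oeALKBH5 libraries and 30.7, 26.5 and 27.5 FPKM in NC libraries. Its highest value of the 6 was in oeALKBH5 replicate 1.

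BRCA2, which loads the recombinase onto single-stranded DNA, was at 22.9, 20.7 and 18.8 FPKM in oeALKBH5 libraries, against 26.8, 33.6 and 37.8 FPKM in NC libraries. The groups did not overlap; the log2 difference of -0.62 (SE 0.16) was just outside the threshold (limma adjusted p = 0.0622). PALB2, which joins BRCA1 to BRCA2, was at 20.2, 9.26 and 9.83 FPKM in oeALKBH5 libraries, against 14.2, 8.92 and 11.5 FPKM in NC libraries. Only oeALKBH5 replicate 1 stood above the rest, and the sign of the difference turned to -0.23 without it.

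Of the 5 paralogs of the recombinase, 1 fell. XRCC2 was at 11.4, 9.38 and 10.8 FPKM in oeALKBH5 libraries, against 16.3, 19.2 and 19.8 FPKM in NC libraries. The groups did not overlap, with a log2 fold change of -0.75 whose SE was 0.17 (limma adjusted p = 0.0364). The call was lost when any 1 library was left out (limma adjusted p-values of 0.0643 to 0.14), without the filter (0.0542), without the trend (0.0543) and with the replicate block (0.0986). RAD51C, which takes part in both paralog complexes, was at 30.5, 36.1 and 43.1 FPKM in oeALKBH5 libraries, against 47.3, 62.7 and 53.5 FPKM in NC libraries. It did not overlap and was not called (log2 difference -0.57, SE 0.16, limma adjusted p = 0.0756).

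RAD51D, the binding partner of XRCC2, overlapped between groups, at 11.4, 6.04 and 6.84 FPKM in oeALKBH5 libraries and 9.72, 9.84 and 12.7 FPKM in NC libraries. RAD51B averaged 22.8 ± 2.00 FPKM in oeALKBH5 cells and 22.5 ± 4.42 FPKM in NC cells, and XRCC3 17.1 ± 0.310 and 18.2 ± 5.43 FPKM in oeALKBH5 and NC cells (SD, n = 3 each). For both, the groups overlapped and the log2 differences, 0.03 (SE 0.17) and -0.04 (SE 0.22), were small beside their errors.

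The cofactors that act with the recombinase on the DNA had lower means in oeALKBH5 cells, with 0 of 3 called. RAD51AP1, which promotes strand pairing, was at 23.5, 22.7 and 28.9 FPKM in oeALKBH5 libraries, against 30.9, 44.9 and 43.3 FPKM in NC libraries, without overlap (log2 difference -0.63, SE 0.17, limma adjusted p = 0.0736). The translocase RAD54L was at 12.2, 9.88 and 9.50 FPKM in oeALKBH5 libraries, against 15.5, 14.5 and 21.4 FPKM in NC libraries, also without overlap (log2 difference -0.64, SE 0.20, limma adjusted p = 0.103). Its relative RAD54B was at 18.6, 14.4 and 27.3 FPKM in oeALKBH5 libraries and 25.2, 37.4 and 29.3 FPKM in NC libraries, which overlapped. RAD54B shares its locus with FSBP, so the split of reads between them is uncertain.

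Within the break-sensing complex, NBN, the subunit that recruits the kinase ATM, fell while its partners did not pass the test. NBN was at 19.1, 19.7 and 14.4 FPKM in oeALKBH5 libraries, against 35.0, 29.3 and 26.7 FPKM in NC libraries. The groups did not overlap, and the log2 fold change was -0.74 (SE 0.17, limma adjusted p = 0.0429). The nuclease MRE11 was at 29.9, 37.7 and 26.4 FPKM in oeALKBH5 libraries and 21.0, 31.0 and 28.9 FPKM in NC libraries. RAD50, the ATPase of the complex, was at 39.1, 45.6 and 47.4 FPKM in oeALKBH5 libraries and 52.6, 39.0 and 35.9 FPKM in NC libraries. Both overlapped, with limma adjusted p-values of 0.55 and 0.861. ATM averaged 41.7 ± 3.88 FPKM in oeALKBH5 cells and 49.4 ± 6.93 FPKM in NC cells (SD, n = 3 each), and overlapped as well (log2 difference -0.24, SE 0.14, limma adjusted p = 0.351).

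Genes of end resection and of joint resolution had no called member among 4, and their log2 differences ran from -0.31 to -0.21. The exonuclease EXO1 was at 28.2, 24.8 and 17.4 FPKM in oeALKBH5 libraries and 24.0, 31.5 and 31.6 FPKM in NC libraries. The nuclease and helicase DNA2 was at 18.0, 13.5 and 8.44 FPKM in oeALKBH5 libraries and 12.3, 21.0 and 12.9 FPKM in NC libraries. Both overlapped widely. The helicase BLM was at 13.5, 7.05 and 7.30 FPKM in oeALKBH5 libraries and 9.59, 12.7 and 9.65 FPKM in NC libraries, with the highest value in oeALKBH5 replicate 1. The nuclease scaffold SLX4 was at 3.62, 3.22 and 3.89 FPKM in oeALKBH5 libraries, against 4.20, 4.77 and 4.06 FPKM in NC libraries, a narrow separation that was not called (limma adjusted p = 0.601).

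**Figure D3:**
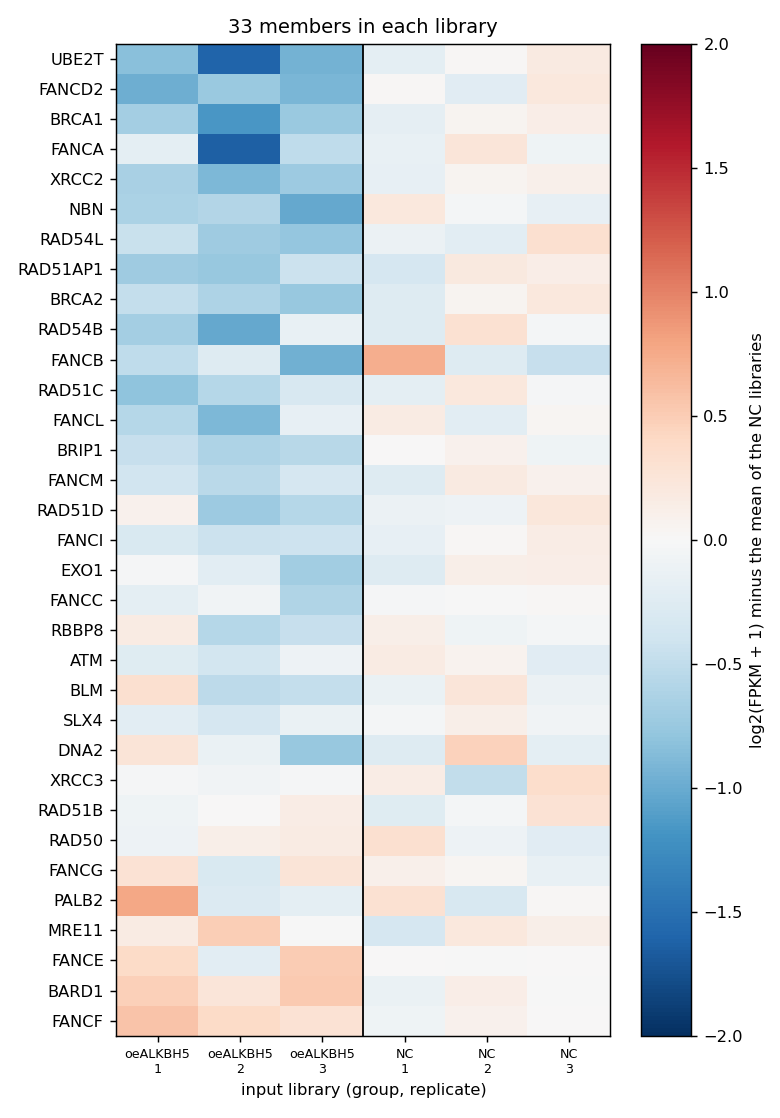
Each member in each input library, as log2(FPKM + 1) minus the mean of the 3 NC libraries, oeALKBH5 libraries left and NC libraries right, ordered by log2 fold change. Blue is lower than the NC mean and red higher; oeALKBH5 replicate 2 holds the lowest value of 17 members, and NC replicate 3 the highest of 12.

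The libraries of a group were not alike across the members. Measured from the NC mean, the median member stood at -0.21, -0.52 and -0.43 in oeALKBH5 replicates 1, 2 and 3, and at -0.12, 0.05 and 0.02 in NC replicates 1, 2 and 3, on the log2 scale. Thus oeALKBH5 replicate 1 lay nearest to NC and NC replicate 1 nearest to oeALKBH5. Replicate 2 of oeALKBH5 held the lowest of the 6 values for 17 members, and NC replicate 3 the highest for 12. The calls depended on single libraries. Without 1 library the number of members called lower was 2 (oeALKBH5 replicate 1), 3 (oeALKBH5 replicate 2), 1 (oeALKBH5 replicate 3), 3 (NC replicate 1), 1 (NC replicate 2) and 0 (NC replicate 3), while between 0.594% and 1.65% of all tested genes were called lower. UBE2T was called in 4 of these 6 fits, BRCA1 in 3 and FANCD2 in 2, and XRCC2 and NBN in 0, with limma adjusted p-values of 0.0643 to 0.14 for XRCC2 and 0.0654 to 0.135 for NBN. UBE2T lost its call without NC replicate 2 (limma adjusted p = 0.067) and without NC replicate 3 (0.0955). For BRCA1 the call was lost without oeALKBH5 replicate 3 (limma adjusted p = 0.0532), NC replicate 2 (0.077) and NC replicate 3 (0.104). FANCD2 lost its call without oeALKBH5 replicate 1 (limma adjusted p = 0.0517), oeALKBH5 replicate 3 (0.0553), NC replicate 1 (0.0568) and NC replicate 3 (0.0762). RAD51AP1 was called lower in the fit without NC replicate 1 (limma adjusted p = 0.0426). All 5 called members kept a negative log2 fold change in each of the 6 fits.

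Because many of these proteins work as bound pairs, the ratio of partner transcripts was taken in each library for 10 pairs, chosen from known complexes with the values in view. In each pair the member with the lower log2 fold change was the numerator. The direction of the ratios was therefore set by this order, and their size follows from the members' own values. Neither is a separate result. Some pairs also share a gene, NBN or FANCL. In 5 of the 10 the ratio was lower in all oeALKBH5 libraries than in all NC libraries, and in 5 it overlapped. The share of ratios without overlap among other gene pairs was not taken. BRCA1 to BARD1 had the largest difference of the 10: 0.315, 0.261 and 0.291 in oeALKBH5 libraries, against 0.689, 0.671 and 0.792 in NC libraries, a log2 difference of -1.31. NBN to RAD50 was 0.49, 0.433 and 0.304 in oeALKBH5 libraries, against 0.665, 0.749 and 0.742 in NC libraries, and NBN to MRE11 also did not overlap, with means of 0.569 ± 0.0622 in oeALKBH5 cells and 1.18 ± 0.425 in NC cells (SD, n = 3 each). FANCD2 to FANCI was 0.227, 0.299 and 0.256 in oeALKBH5 libraries, against 0.428, 0.312 and 0.389 in NC libraries, and here oeALKBH5 replicate 2 and NC replicate 2 came close. FANCA to FANCG averaged 0.53 ± 0.161 in oeALKBH5 cells and 0.974 ± 0.156 in NC cells (SD, n = 3 each). Each of these 5 pairs had an exact two-sided permutation p of 0.1, the smallest that 3 libraries against 3 can give, and an adjusted p of 0.2 over the 10 pairs, so none could pass.

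**Figure D4:**
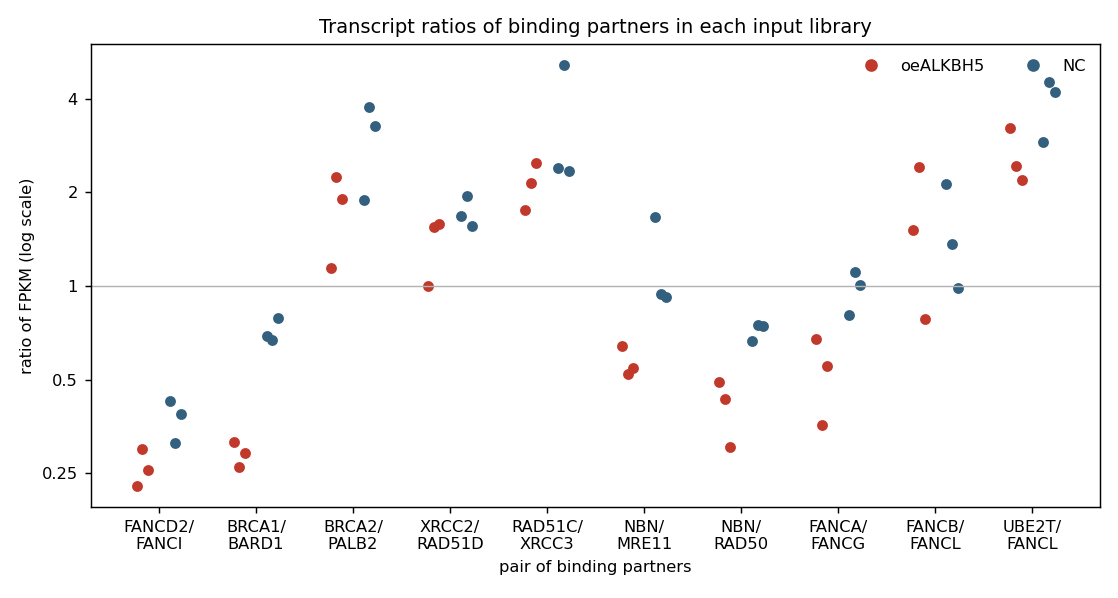
Ratio of the FPKM values of 10 pairs of binding partners in each input library, on a log axis, oeALKBH5 left and NC right within each pair. The BRCA1 to BARD1 ratios sit between 0.261 and 0.315 in oeALKBH5 libraries, below the NC ratios of 0.671 to 0.792.

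Promoters of S phase genes often carry sites of the E2F factors, so the members' promoters were searched for such letters. RefSeq windows on GRCh38.p14, from 250 bases before to 50 after the transcription start, were matched by symbol for 29 of the 33 members, and not for DNA2, FANCI, NBN and RAD54B. The letters searched, on both strands, were TTTCCCGC, TTTCGCGC, TTTGCCGC and TTTGGCGC for E2F, CCAAT for NF-Y, and TTTGAA for the element called CHR. E2F letters stood in 5 of 29 members (17.2%), EXO1, FANCA, FANCC, FANCD2 and XRCC2, and in 3.99% of the 27305 genes of the table. CCAAT stood in 13 of 29 (44.8%) and in 39.7% of all genes, and TTTGAA in 4 of 29 (13.8%) and 18.2% of all genes. The windows of 4 members that fell are shown up to 30 bases after the start, 5′ to 3′ along the gene, since these hold the letters named; capitals mark E2F letters in FANCD2 and XRCC2, CCAAT in UBE2T and BRCA1, and TTTGAA in UBE2T.
FANCD2: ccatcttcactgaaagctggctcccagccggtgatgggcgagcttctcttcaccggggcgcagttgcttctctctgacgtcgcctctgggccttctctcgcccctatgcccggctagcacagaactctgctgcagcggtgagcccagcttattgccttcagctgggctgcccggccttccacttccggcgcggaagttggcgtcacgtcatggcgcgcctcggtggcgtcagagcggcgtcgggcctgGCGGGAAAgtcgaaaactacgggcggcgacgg
XRCC2: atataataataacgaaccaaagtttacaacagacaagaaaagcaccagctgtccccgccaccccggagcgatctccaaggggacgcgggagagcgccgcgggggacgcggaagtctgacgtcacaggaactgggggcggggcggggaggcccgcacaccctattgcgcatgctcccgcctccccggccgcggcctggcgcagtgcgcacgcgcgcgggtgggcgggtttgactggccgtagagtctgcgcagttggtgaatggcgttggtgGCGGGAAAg
UBE2T: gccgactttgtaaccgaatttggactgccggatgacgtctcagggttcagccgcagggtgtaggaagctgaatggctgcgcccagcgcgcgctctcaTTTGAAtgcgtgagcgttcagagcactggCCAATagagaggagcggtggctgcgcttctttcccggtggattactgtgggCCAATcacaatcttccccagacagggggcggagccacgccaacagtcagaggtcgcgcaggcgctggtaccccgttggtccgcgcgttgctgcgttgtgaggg
BRCA1: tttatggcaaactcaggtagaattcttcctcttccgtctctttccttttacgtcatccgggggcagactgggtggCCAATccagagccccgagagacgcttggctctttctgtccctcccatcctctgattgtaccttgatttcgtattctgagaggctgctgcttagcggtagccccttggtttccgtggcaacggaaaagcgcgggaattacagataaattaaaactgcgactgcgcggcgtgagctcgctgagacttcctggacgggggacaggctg

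The windows shown are FANCD2 at chr3:10026187-10026466 on the plus strand, XRCC2 at chr7:152676112-152676391 on the minus strand, UBE2T at chr1:202341907-202342186 on the minus strand, BRCA1 at chr17:43125335-43125614 on the minus strand, all on GRCh38.p14. In FANCD2 and XRCC2 the same 8 letters, the opposite strand of TTTCCCGC, lay close to the start: they began at base -2 in FANCD2 and at base 22 in XRCC2, counted from 1 at the start site. UBE2T had CCAAT at -124 and -73 and TTTGAA at -153, and BRCA1 had CCAAT at -175 in 1 of its 2 windows. None of the E2F letters searched stood in BARD1 and FANCF, which lay higher in oeALKBH5 cells, nor in UBE2T and BRCA1, which fell. Only exact matches were counted, so sequences close to these letters were not. EXO1, FANCA and FANCC held E2F letters and were not called. FANCF held CCAAT at -92 and -52. A link between these letters and the direction of the members was not tested. A match is a description of these letters and no evidence of binding.

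Of 46 other Fanconi anaemia and recombination genes listed, 45 were tested. Of these, 4.44% were called lower, namely FIGNL1 and CENPX, and 0 higher, beside 2.43% and 3.02% of all tested genes. Of the 45, 33 were below 0, beside 47.7% of all tested genes. In 12 every oeALKBH5 library lay below every NC library and in 1 above, beside 13.0% and 15.1%. At an unadjusted limma p under 0.05, 9 were lower and 1 higher, beside 10.3% and 11.6%. The median log2 fold change was -0.14, between that of the members and that of all tested genes. FIGNL1, an ATPase that acts on recombinase filaments, was at 30.9, 26.8 and 29.9 FPKM in oeALKBH5 libraries, against 42.9, 42.3 and 43.4 FPKM in NC libraries (log2 fold change -0.54, SE 0.11, limma adjusted p = 0.0323). CENPX, a histone-fold partner of FANCM, was at 44.7, 31.3 and 29.6 FPKM in oeALKBH5 libraries, against 51.7, 67.2 and 67.0 FPKM in NC libraries (log2 fold change -0.81, SE 0.18, limma adjusted p = 0.0355). Both separated without overlap. Neither was called without the limma trend or with the replicate block, and CENPX was not called without the filter (limma adjusted p = 0.0969). Leaving out 1 library ended the FIGNL1 call each time (limma adjusted p-values of 0.0565 to 0.121), and the CENPX call in all fits but those without oeALKBH5 replicate 1 (0.0188) or NC replicate 1 (0.0437). USP1, which removes ubiquitin from FANCD2, was at 33.1, 28.0 and 29.8 FPKM in oeALKBH5 libraries, against 43.6, 41.3 and 39.6 FPKM in NC libraries, and was not called (limma adjusted p = 0.0685). The helicase MCM8 averaged 9.21 ± 1.89 FPKM in oeALKBH5 cells and 15.7 ± 1.80 FPKM in NC cells (SD, n = 3 each; limma adjusted p = 0.0737).

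Other repair routes held no called gene: 0 of 15 genes of end joining and 0 of 7 of mismatch repair passed the limma test over all genes, with 2 of each list lower at an unadjusted p under 0.05. Over all tested genes 2.43% were called lower, a share at which lists this short can hold 0 calls, and 10.3% were lower at that unadjusted p. The median log2 fold changes of end joining and of mismatch repair were -0.23 each. Below 0 were 11 of the 15 and 6 of the 7, beside 47.7% of all tested genes. In end joining, XRCC6, which encodes Ku70, was at 201, 185 and 182 FPKM in oeALKBH5 libraries, against 220, 258 and 230 FPKM in NC libraries (limma adjusted p = 0.0643). In mismatch repair, MSH6 averaged 39.8 ± 0.388 FPKM in oeALKBH5 cells and 51.2 ± 6.72 FPKM in NC cells (SD, n = 3 each; limma adjusted p = 0.135). Whether the members differ from these lists was not tested.

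Markers of S phase, none of them a member, were also called in the lower direction alone. Of 28 tested, 12 fell, 0 rose and 16 were not called, with a median log2 fold change of -0.64, below the members' -0.38; their summed level was between 884.7 and 1064 FPKM in oeALKBH5 libraries, against 1461 and 1608 FPKM in NC libraries. PCNA, the sliding clamp, had the smallest p: 103, 93.7 and 91.6 FPKM in oeALKBH5 libraries, against 197, 215 and 226 FPKM in NC libraries. Of the 12 calls, only those of PCNA, TYMS, RRM2 and CCNE2 were made without the limma trend. With the replicate block RFC2, MCM5, MCM6, UNG and E2F1 were not called. Without the filter RFC2, MCM4, MCM5, MCM6 and E2F1 were not called. E2F1 and UNG also lost their call without any 1 of the oeALKBH5 libraries. MCM4, MCM6 and RFC2 lost theirs without oeALKBH5 replicate 2 or 3, MCM5 without replicate 1 or 2, and RRM1 without replicate 3. Of 34 markers of G2 and M phase 1 fell, CENPE (limma adjusted p = 0.0134, but 0.0561 without NC replicate 2 and 0.0662 without NC replicate 3). Called lower were thus 2.94% of these, beside 42.9% of the S phase markers and 2.43% of all tested genes. Their sums overlapped, at 1540 to 1903 FPKM in oeALKBH5 libraries and 1516 to 2032 FPKM in NC libraries. Still, 25 of the 34 were below 0, with a median log2 fold change of -0.22. At an unadjusted limma p under 0.05, 8 were lower and 0 higher, beside 10.3% and 11.6% of all tested genes. Of 13 genes that link E2F and p53 to the cycle, 2 fell and 2 rose (15.4% each), beside 2.43% and 3.02% of all tested genes. The lists share genes: E2F1 and E2F8 are also S phase markers, and E2F1 is 1 of the 12 that fell there. USP1 is both an S phase marker and 1 of the other pathway genes. E2F1, an activator of S phase genes, fell to 13.9 ± 1.74 FPKM in oeALKBH5 cells, against 22.5 ± 2.14 FPKM in NC cells (SD, n = 3 each; limma adjusted p = 0.0491), and E2F2 fell to 3.38 ± 0.884 FPKM in oeALKBH5 cells, against 8.32 ± 1.94 FPKM in NC cells (SD, n = 3 each; limma adjusted p = 0.0464). CDKN1A, which encodes the inhibitor p21, rose to 59.4 ± 2.85 FPKM in oeALKBH5 cells, against 40.1 ± 4.73 FPKM in NC cells (SD, n = 3 each; limma adjusted p = 0.0323), and CCND1, which encodes cyclin D1, rose to 120 ± 6.31 FPKM, against 92.8 ± 3.88 FPKM in NC cells (SD, n = 3 each; limma adjusted p = 0.0417). These 4 calls were not stable: without the limma trend and with the replicate block none was made, and with 1 library left out E2F1 (limma adjusted p-values of 0.0657 to 0.158), E2F2 (0.0557 to 0.136) and CCND1 (0.0843 to 0.128) were never called. CDKN1A was called in 1 of those 6 fits, without NC replicate 1 (limma adjusted p = 0.0437), and had 0.0742 to 0.118 in the others. Without the filter E2F1 (0.0715), E2F2 (0.0883) and CDKN1A (0.0574) were not called, and E2F1 was not called with a pseudocount of 0.1 (0.0501) or with quantile normalization (0.0513), all limma adjusted p-values. The part of the cell cycle in the members' values was not tested.

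**Figure D5:**
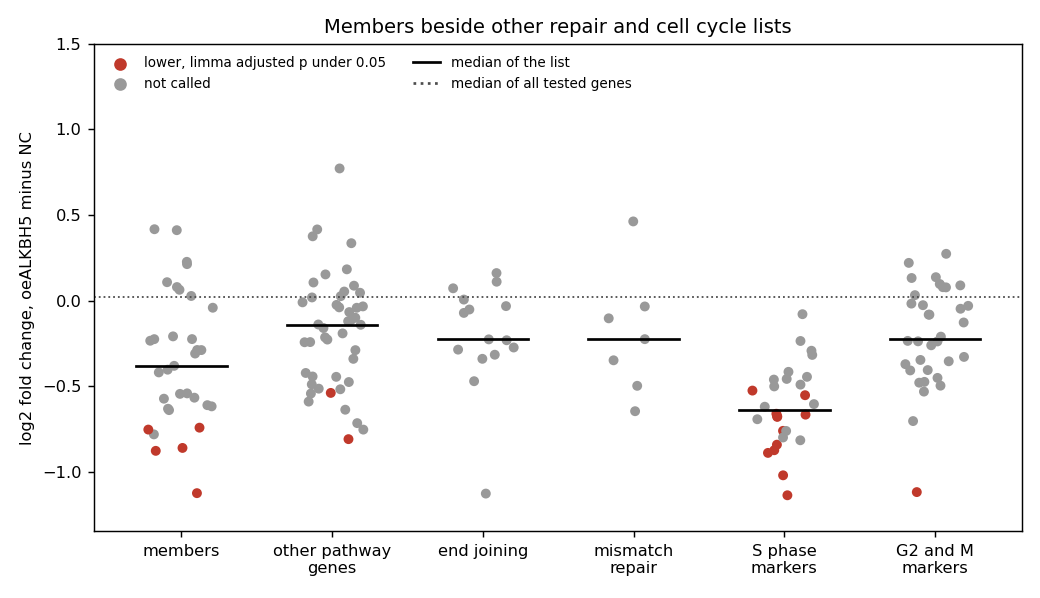
Log2 fold change, oeALKBH5 minus NC, of each tested gene in 6 lists, with the median of each list as a line and the median of all tested genes dotted. The members' median of -0.38 lies between that of the S phase markers, -0.64, and those of the other lists, -0.23 to -0.14.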

How the data were processed

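Input RNA of C4-2 cells was measured in 3 oeALKBH5 and 3 NC libraries, grouped by the titles in the labels. Tools named in the submitters' processing notes are HISAT2 2.0.4, cutadapt 1.9.3, Cufflinks and Cuffdiff, with the build hg19 and no roles. The authors deposited FPKM values, used here unchanged; their header gives no unit, which was inferred from those tools and the range of the values. Whether counting used strand is not given in the sources used here, and 12 of 33 members overlap another protein-coding gene in the GRCh38 annotation, so their values are less certain. Members were matched by Ensembl ID and symbol; 19434 of 20308 genes had a symbol. The 12757 genes whose mean reached 0.5 FPKM were fitted as log2(FPKM + 1) in R 4.3.3 by limma 3.58.1, using its trend option and no covariates. Benjamini-Hochberg adjustment covered all of these genes, with a threshold of 0.05. Fold changes on this scale are too small for genes of low level. The test was checked on simulated data. Exact permutation tests, summaries and figures used Python 3.11.15, scipy 1.17.1, pandas 2.3.3, numpy 2.4.6 and matplotlib 3.10.9.

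The members, the other lists and the pairs were chosen with earlier results of these data known. All members are named. Of the other lists, only called genes or the 4 with the smallest p could be, except markers of cell types and genes shared between lists. The m6A peak lists are on hg19 and were not tied to genes, as no annotation of that build was used, so methylation of these transcripts is not analysed here. The alternatives were other pseudocounts, filters, scalings, variance models, a replicate block and leaving out each library.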

Additional observations from a re-analysis of the deposited data

How the results depend on the processing

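The 5 members called lower were the same 5 with a pseudocount of 0.1, with a mean of at least 1 FPKM, with quantile normalization and with median ratio scaling. Without a filter on low values the count was 1 (FANCD2), with 163 of all genes lower and 1 of the other pathway genes; more genes, 15776, are then tested. Without the limma trend the counts were 0 members, 72 genes lower, 198 higher and 0 other pathway genes; the 5 members then had adjusted p-values of 0.053 to 0.0901, and the cause was not tested. Replicates sharing a number did not deviate together (correlations of -0.017, -0.0205 and 0.0315 for replicates 1, 2 and 3). With the replicate block 1 member was called lower (UBE2T), 141 genes lower, 203 higher and 0 other pathway genes. Leaving out 1 library gave 0 to 3 members lower, 76 to 210 genes lower, 156 to 226 higher and 0 to 1 other pathway genes lower. No alternative called a member higher.

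The members' median log2 fold change ran from -0.45 to -0.31 over all alternatives, and median ratio scaling moved the median of all genes to 0.00 from 0.02. No called member changed sign. Uncalled members near 0 did when 1 library was left out, over ranges of -0.027 to 0.27 for FANCG, -0.23 to 0.29 for PALB2, -0.10 to 0.17 for RAD51B, -0.44 to 0.063 for DNA2, -0.29 to 0.13 for XRCC3 and -0.047 to 0.22 for RAD50. Depth is unknown, so no counting error was given.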
